A study of Mus musculus with 2 samples.

Results

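The semaphorins, plexins, neuropilins, Slits, Robos, netrins and netrin receptors were followed in the palate of mouse fetuses at E18.5, an embryonic day shortly before birth. Members were all probe sets that the array's annotation gives to 1 gene whose symbol is a class 3 to class 7 semaphorin, Plxna1 to Plxna4, Plxnb1 to Plxnb3, Plxnc1, Plxnd1, Nrp1, Nrp2, Slit1 to Slit3, Robo1 to Robo3, Ntn1, Ntn4, Dcc or Unc5a to Unc5d. This gave 103 of the 45101 probe sets, for 44 of 18193 genes. The series asked what skeletal muscle contributes to palate development, with 1 array of wild-type BALB/c palate and 1 array of BALB/c palate labelled as null for both Myf5 and Myod1 (MyoD), the transcription factors that commit cells to skeletal muscle. Whether each sample came from 1 fetus or from several, its sex, and which part of each gene was removed are not given in the labels. With 1 array per genotype there was no test and no p-value, and genotype cannot be told apart from differences between animals, dissections or hybridisations.

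Guidance genes encode secreted or membrane-bound cues and the receptors that read them at the tips of growing axons and on migrating cells. Secreted class 3 semaphorins bind neuropilins, which signal through plexins, whereas most membrane-bound semaphorins bind plexins directly. Slits act mainly through Robo receptors, and netrins through Dcc and the Unc5 family. In craniofacial tissue the same cues steer trigeminal axons and vessels and act in bone and epithelium.

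Each value below is a MAS5 signal, a relative brightness with no physical unit, after both arrays were scaled to a common median. The 2 values of a gene are always given with wild type first, and a ratio is double null over wild type by the labels. A gene was represented by its brightest probe set and counted as measured where the brighter array reached 658, the 60th percentile of all signals; signals under 287 were set to that floor. As a measure of how far probe sets of the same gene disagree, their log2 ratios had a pooled SD of 0.51 over 10190 measured probe sets of 4030 genes, which does not cover differences between animals. The number of arrays limits the precision of every value.

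Signals of the targeted genes were alike on both arrays. The measured Myod1 probe set gave 1938 and 1663, a dimmer one gave 282 and 305, and the Myf5 probe set gave 517 and 531. Whether these probe sets lie in a removed part is not stated, so the second array is called the array labelled double null. All 12 skeletal muscle markers examined were lower on it, with a summed signal of 106978 against 198570, and all stayed above the floor. Of 11 palatal mesenchyme markers 8 were measured, while the palatal transcription factors Osr1, Osr2 and Tbx22 were not. The arrays also differed in the Y-linked Eif2s3y (10.8 and 2794) and in Xist (33812 and 16947). Both genes thus gave signal on the array labelled double null, and whether that sample held tissue of both sexes was not tested. Genotype cannot be told apart from sex, or from a mix of sexes, either. Of the guidance genes, Plxna3 and Plxnb3 lie on the X chromosome.

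Of the 44 guidance genes 37 were measured, and 7 of them differed at least 2-fold between the arrays. Sema4f, Sema4b and Unc5d read higher on the array labelled double null; Sema6c, Sema3f, Plxna3 and Sema4c were lower. The other 30 lay within 2-fold, and 21 of the 37 had a log2 ratio below 0 (56.8%, against 43.7% of all measured genes). Among all 11238 measured genes 3.51% were at least 2-fold higher and 4.22% at least 2-fold lower, 7.72% in either direction, against 8.11%, 10.8% and 18.9% of the guidance genes. At 1.5-fold 8 guidance genes were higher and 10 lower, where 13.2% and 11.7% of all genes were (25% in either direction); at 3-fold 1 was higher and 2 were lower, against 0.498% and 1.17% of all genes (1.66% in either direction). The median log2 ratio of the guidance genes was -0.35, that of all measured genes 0.07. With an offset added to all signals in place of the floor, 4 guidance genes were past 2-fold (Plxna3, Sema4c and Unc5d were not), against 4.11% of all genes. With probe sets without suffixes Sema3f and Sema6c were not measured. Of the 32 guidance genes then measured 2 were at least 2-fold lower, against 4.15% of all genes. The median rested on the choice of probe set: with the mean over all measured probe sets of each gene it was -0.01, against 0.05 for all genes. In whole tissue, fewer cells of a type and less RNA per cell cannot be told apart.

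**Figure D1:**
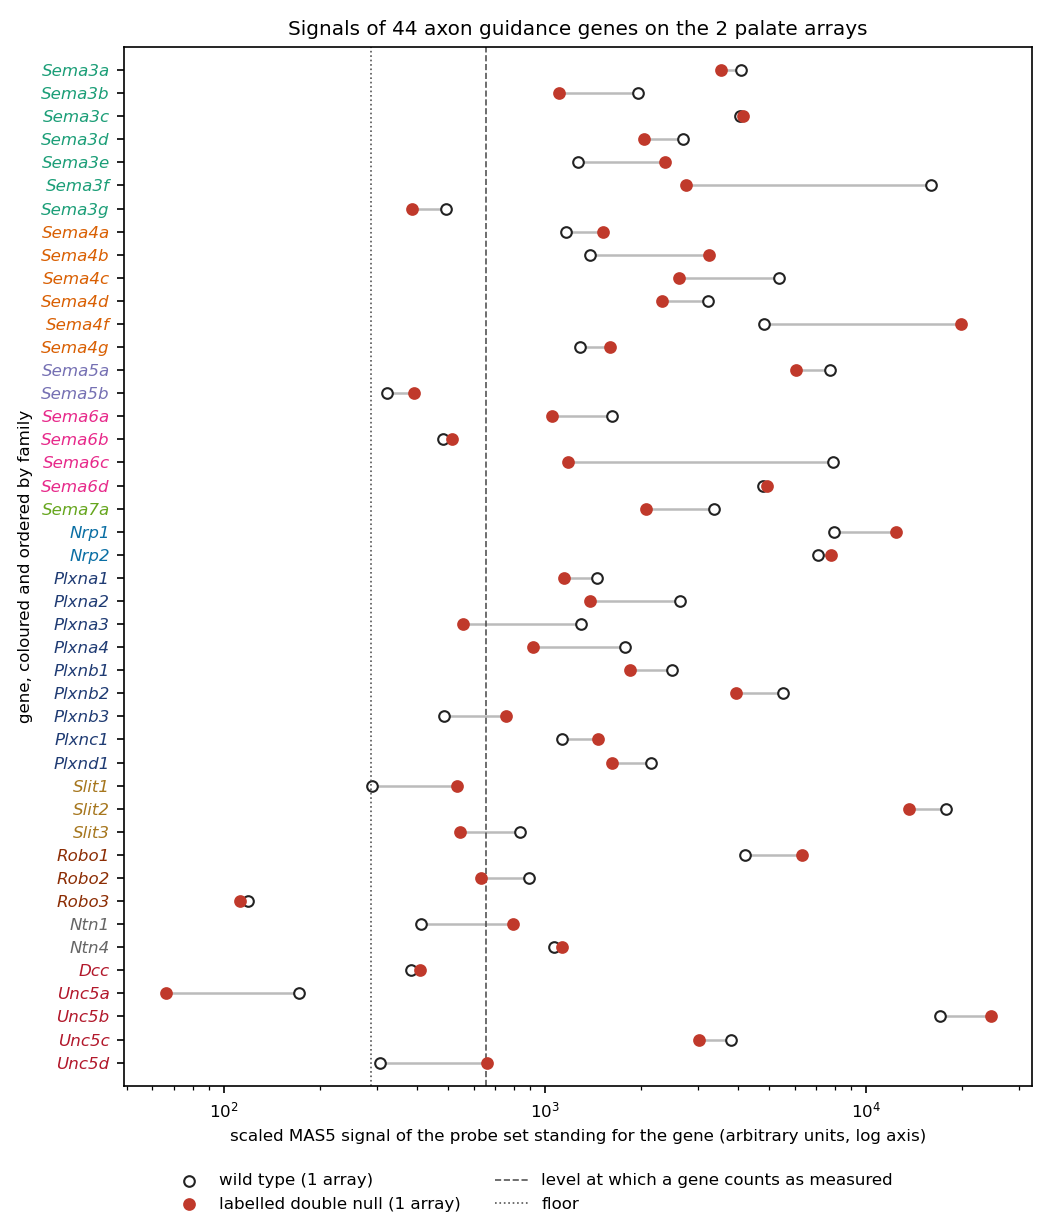
Scaled MAS5 signal (log axis, arbitrary units) of the probe set standing for each of the 44 guidance genes, with open circles for the wild-type array and filled circles for the array labelled double null; the dotted line is the floor of 287 and the dashed line the level of 658 at which a gene counted as measured. The longest bars belong to Sema6c and Sema3f, which read lower on the second array, and to Sema4f, which read higher.

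Depth of signal differed among these genes. In 6 of the 37 (Ntn1, Plxna3, Plxnb3, Robo2, Slit3 and Unc5d) only the brighter array reached the measured level, so a difference between the arrays helped them to be counted. Of the 31 genes with both arrays at or above it, 2 were at least 2-fold higher and 3 at least 2-fold lower, or 16.1%, against 4.46% of the 9975 such genes overall. The 7 guidance genes that were not measured were Dcc, Robo3, Sema3g, Sema5b, Sema6b, Slit1 and Unc5a, with a brighter array between 119 for Robo3 and 532 for Slit1. Dcc, the netrin receptor that mediates attraction, thus has no usable value here: its 3 probe sets gave 383 and 409, 122 and 500, and 326 and 247.

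**Figure D2:**
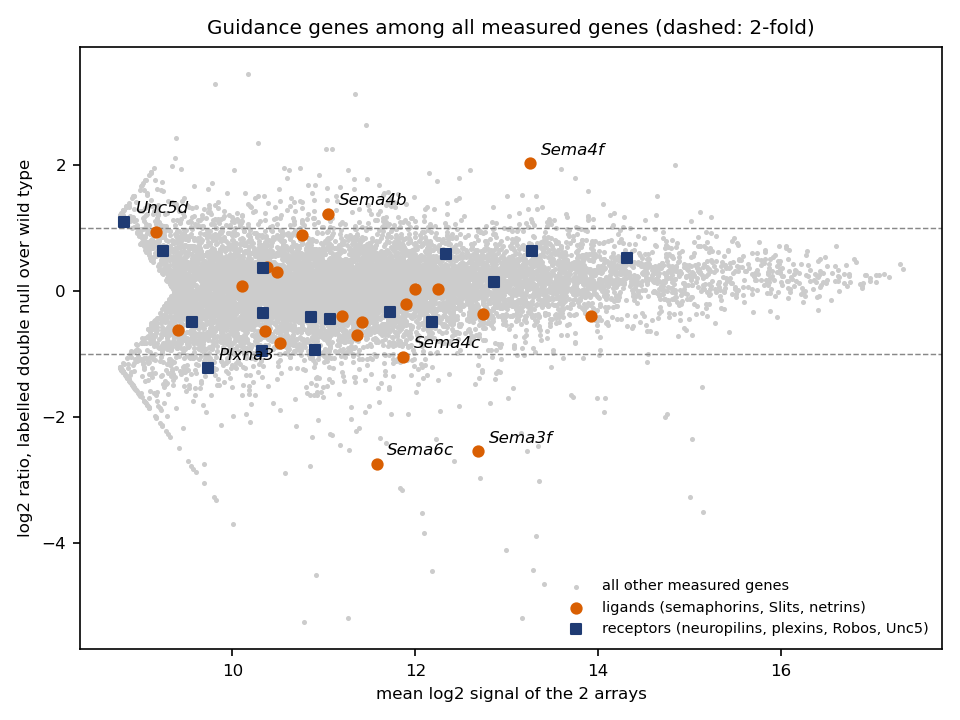
Log2 ratio (array labelled double null over wild type) against the mean log2 signal of both arrays for all measured genes, with guidance ligands as circles and receptors as squares; the dashed lines mark 2-fold. The 7 named genes lie beyond those lines, Unc5d and Plxna3 at low signal and the 5 semaphorins at middle to high signal.

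The class 4 semaphorins, membrane-bound ligands of plexins, held the highest ratio of all guidance genes and members past 2-fold in both directions. Sema4f gave 4824 and 19834, a log2 ratio of 2.04 or 4.11-fold higher, which ranked it 10 among 11238 measured genes from the highest. Its second measured probe set, which carries no cross-hybridisation suffix, gave 2190 and 5933, or 2.71-fold higher. Of the 14 guidance genes with more than 1 measured probe set, Sema4f alone was past 2-fold in the same direction in each of them. Sema4b gave 1380 and 3239 (2.35-fold higher), and its other probe set was under the floor on both arrays. Sema4c, a ligand of Plxnb2, went the other way with 5369 and 2614, or 2.05-fold lower, by its only probe set. Sema4d, the ligand of Plxnb1 known from immune cells and from bone, gave 3234 and 2311 (log2 ratio -0.49). Sema4a and Sema4g had log2 ratios of 0.38 and 0.31. The class 4 median was 0.35 over 6 measured genes, above 0 under each of the 4 other scalings tried. All of these but quantile normalization shift every guidance ratio by one constant smaller than this median, so its sign could not change under them.

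Among the secreted class 3 semaphorins, which repel many sensory and sympathetic axons, 4 of 6 measured genes were lower, and 5 of 6 under the deposited, quantile and reference ratio scalings, in which Sema3c turned below 0. Sema3f, which acts through Nrp2, gave 15911 and 2749, a log2 ratio of -2.53 or 5.79-fold lower, the 32nd lowest of all measured genes. That probe set carries the suffix for probes that may match other transcripts. The 2 other Sema3f probe sets were dim and not measured. The brighter of them gave 450 and 104, with the array labelled double null under the floor, and a log2 ratio of -0.65 after flooring. The dimmer gave 283 and 167, both under the floor, so its log2 ratio was 0 and showed no direction. Sema3b, which in RefSeq's gene order is separated from Sema3f by 3 coding genes, gave 1945 and 1107 (log2 ratio -0.81), and its second measured probe set had -0.61. Sema3d gave 2685 and 2044 (log2 ratio -0.39) with -0.83 in its second probe set, so both Sema3b and Sema3d were lower in each of their measured probe sets.

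The remaining class 3 genes were nearer to 0 or higher. Sema3a, the classical repellent for trigeminal sensory axons, gave 4089 and 3549, a log2 ratio of -0.20, well inside the SD between probe sets. Sema3c, known for its part in outflow tract development, gave 4047 and 4146. Sema3e, the ligand that binds Plxnd1 without a neuropilin, had the highest ratio of class 3, with 1268 and 2366 (log2 ratio 0.90) and 538 and 708 (0.40) in its second probe set. Sema3d and Sema3a are direct neighbours in the gene order and Sema3e follows after 3 coding genes, so these 3 neighbours did not all share a direction. The class 3 median was -0.30, and it stayed below 0 under each of the other 4 scalings. Apart from quantile normalization these add a constant smaller in size than this median, so its sign was fixed under them.

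Sema6c had the lowest ratio of all guidance genes. Class 6 semaphorins are membrane-bound and bind class A plexins. The brightest Sema6c probe set gave 7894 and 1185, a log2 ratio of -2.74 or 6.66-fold lower, the 29th lowest of all measured genes. Its other 2 probe sets did not show this difference, with 407 and 514, and 272 and 257, and neither reached the measured level. Sema6a, which guides axons and granule cells, gave 1621 and 1054 in one probe set (log2 ratio -0.62) and 478 and 736 in another (0.62). Sema6d gave 4799 and 4906. Of the 3 measured class 6 genes, then, 1 differed beyond 2-fold, 1 had probe sets that disagreed and 1 was at 0.03. Sema5a, a transmembrane semaphorin with thrombospondin repeats, gave 7756 and 6054 (log2 ratio -0.36). Its second measured probe set gave 2039 and 2194 (0.11). Sema7a, the membrane-anchored semaphorin that acts through integrins and Plxnc1, gave 3355 and 2074, a log2 ratio of -0.69.

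Myf5 and MyoD bind E-boxes, the 6-base motif CANNTG, and CAGCTG is the form the MyoD family is best known to bind. The RefSeq promoter windows (assembly GRCm38.p6, from 250 bases before to 50 after a start site) are printed for the guidance genes at the extremes in both directions for which windows are listed, 5′ to 3′ along the gene with each CANNTG in capitals. The Sema4f window lies at chr6:82939720-82940019 on the minus strand, and the Sema6c windows, for different start sites, at chr3:95160170-95160469 and chr3:95164089-95164388 on the plus strand.
Sema4f: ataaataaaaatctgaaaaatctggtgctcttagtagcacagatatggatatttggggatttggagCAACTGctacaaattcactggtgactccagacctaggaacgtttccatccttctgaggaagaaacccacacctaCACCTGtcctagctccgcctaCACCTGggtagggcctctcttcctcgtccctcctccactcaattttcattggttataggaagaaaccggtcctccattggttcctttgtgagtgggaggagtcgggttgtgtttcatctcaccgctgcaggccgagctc
Sema6c, first start site: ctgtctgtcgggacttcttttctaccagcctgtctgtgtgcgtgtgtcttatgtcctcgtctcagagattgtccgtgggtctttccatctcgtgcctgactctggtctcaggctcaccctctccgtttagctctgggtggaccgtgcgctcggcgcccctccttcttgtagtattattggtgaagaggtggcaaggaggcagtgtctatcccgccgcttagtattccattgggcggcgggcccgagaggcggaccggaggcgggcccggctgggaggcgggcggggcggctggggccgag
Sema6c, second start site: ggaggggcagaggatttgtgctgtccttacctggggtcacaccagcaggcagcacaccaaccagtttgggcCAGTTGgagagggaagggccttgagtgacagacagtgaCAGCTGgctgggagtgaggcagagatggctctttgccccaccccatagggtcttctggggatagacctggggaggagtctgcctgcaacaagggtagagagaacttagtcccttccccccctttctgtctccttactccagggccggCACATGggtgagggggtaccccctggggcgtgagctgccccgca
The Sema4f window holds CANNTG 3 times and CAGCTG not at all. The first Sema6c window holds none, and the second holds CANNTG 3 times, of which 1 is CAGCTG. Windows were listed for 35 of the 44 guidance genes, 48 windows in all, and 26 of them (54.2%) hold CANNTG on either strand, which reads the same on both, against 72.3% of all 32851 windows. CAGCTG, a subset of those matches, is in 7 of the 48 (14.6%), namely in windows of Plxnb3, Robo2, Sema3g, Sema4d, Sema4g, Sema6c and Sema7a, against 16.3% of all windows. Of the 5 genes past 2-fold with a listed window, Sema6c alone holds CAGCTG. These are matches of letters and not binding sites.

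Among the receptors of semaphorins, plexins were mostly lower and neuropilins at or above 0 by the probe set standing for each gene. Several of these ratios were smaller than the SD between probe sets. Of 9 measured plexins 7 had log2 ratios below 0, with a median of -0.44, where 43.7% of all measured genes were below 0. Of these 7, Plxna1, Plxnb1, Plxnb2 and Plxnd1 lay within the SD of 0.51 between probe sets. The count was 7 of 9 under each of the other 4 scalings as well. Apart from quantile normalization these shift all guidance ratios by one constant, smaller than any plexin ratio, so the count could not change under them. All 4 class A plexins, the signalling partners of neuropilins and class 6 semaphorins, were below 0 by the probe set standing for the gene. Plxna3 gave 1297 and 556, a log2 ratio of -1.22 or 2.33-fold lower. Its dimmer probe set gave 486 and 196, was not measured, and lay under the floor on the array labelled double null. Plxna4 gave 1784 and 922 (log2 ratio -0.95), with its other probe set under the floor. Plxna2 gave 2645 and 1387 (-0.93), but another measured probe set gave 1053 and 1119 (0.09). Plxna1 gave 1459 and 1147 (-0.35).

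Of the 3 class B plexins, receptors of class 4 semaphorins, 2 were below 0 by the probe set standing for the gene. Plxnb1 gave 2498 and 1839 (log2 ratio -0.44) and, in its second probe set, 2897 and 1538 (-0.91). Plxnb2 gave 5530 and 3940 (-0.49) by its only probe set. Plxnb3 was above 0 at 0.64, with 486 and 756, by a probe set that carries a cross-hybridisation suffix. It reached the measured level only on the array labelled double null and was not measured in 2 of 12 alternatives. The other Plxnb3 probe set gave 386 and 158 and was not measured. Plxnd1, the endothelial receptor of Sema3e, gave 2137 and 1618 (-0.40), so ligand and receptor had ratios of opposite sign. Plxnc1, the receptor of Sema7a, gave 1132 and 1470 (0.38) with 0.28 in its second measured probe set, again opposite in sign to its ligand.

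Nrp1 and Nrp2, the ligand-binding co-receptors of class 3 semaphorins and of vascular endothelial growth factor, had log2 ratios above 0 in 6 of their 7 measured probe sets. The brightest Nrp1 probe set gave 7947 and 12452 (log2 ratio 0.65), whereas its 3 other measured probe sets had 0.21, 0.01 and -0.10. Nrp2 had 7076 and 7815 (0.14), and its 2 other measured probe sets had 0.48 and 0.14. The Nrp1 difference was thus seen in 1 of 4 probe sets, and the Nrp2 values were small in all 3; under scaling on the median ratio of reference genes Nrp2 was at 0.00.

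**Figure D3:**
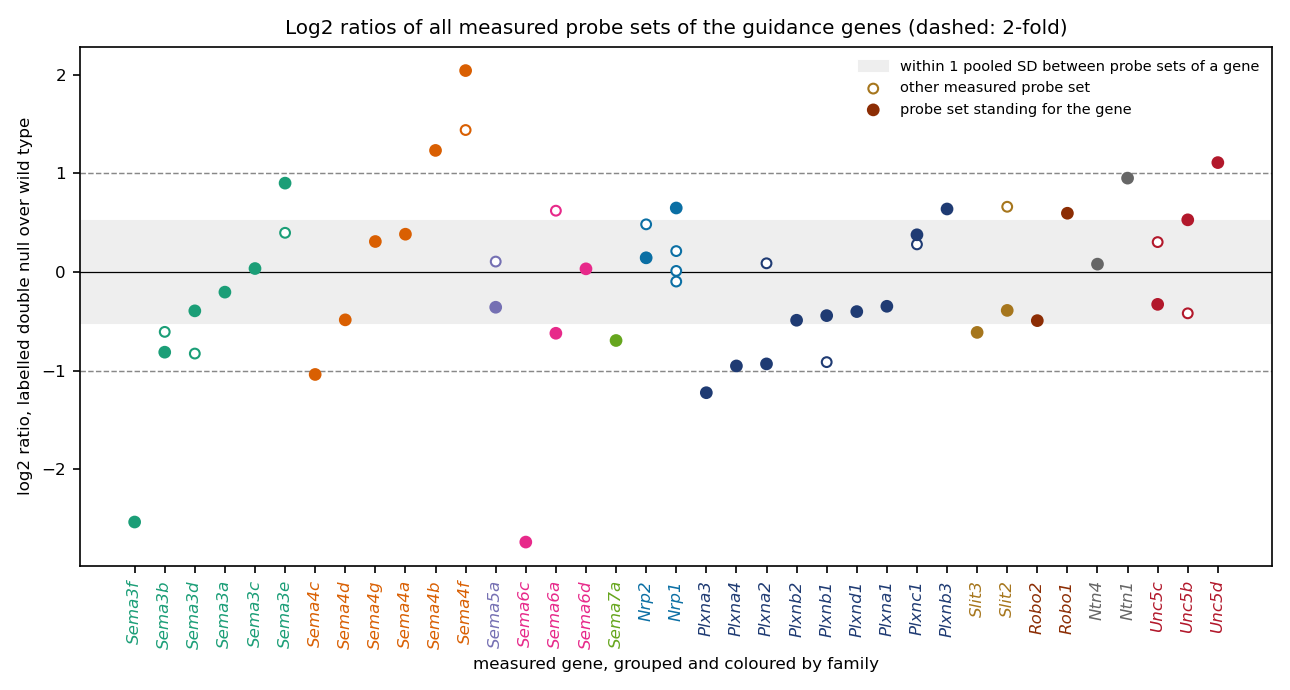
Log2 ratio (array labelled double null over wild type) of all 54 measured probe sets of the 37 measured guidance genes, filled where the probe set stands for the gene and open for other measured probe sets; the grey band is 1 pooled SD between probe sets of a gene (0.51) and the dashed lines mark 2-fold. Both Sema4f points lie above 2-fold, while the points of Sema6a, Slit2, Unc5b, Unc5c, Sema5a, Plxna2 and Nrp1 fall on both sides of 0.

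Slits and Robos did not differ beyond 2-fold. Slit2, a repellent that binds Robo1 and Robo2, gave 17794 and 13585 (log2 ratio -0.39) in the probe set standing for it but 612 and 967 (0.66) in another. Slit3 gave 835 and 546 (-0.61) by its only probe set. Robo1, the widely expressed Slit receptor, gave 4201 and 6344 (0.59), and Robo2 gave 892 and 634 (-0.49). The 2 genes are direct neighbours and had ratios of opposite sign. Under the deposited scaling and under scaling on the median ratio of reference genes, the sign of the Robo median of 0.05 turned to -0.02 and -0.09.

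Both measured netrins and 2 of 3 measured netrin receptors had log2 ratios above 0, but with scaling on the median ratio of reference genes Ntn4 turned to -0.07 and Unc5d was not measured. Ntn1, netrin-1, whose epithelial expression is known in several organs, gave 412 and 796, a log2 ratio of 0.95 that was just under 2-fold, and its other probe set was under the floor on both arrays. Ntn4, a laminin-binding netrin, gave 1071 and 1132 (0.08). Unc5b, a repulsive netrin receptor of endothelium, gave 16985 and 24493 (0.53), but its second measured probe set gave 1387 and 1038 (-0.42). Unc5c gave 3804 and 3030 (-0.33) in one probe set and 631 and 778 (0.30) in another. Unc5d gave 307 and 662, or 2.16-fold higher, with its brighter array barely above the level of 658, and it was not measured in 3 of 12 alternatives.

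Probe sets of one guidance gene often disagreed. Of the 14 members with more than 1 measured probe set, 7 had all of them on one side of 0 and 7 did not. The former were Nrp2, Plxnb1, Plxnc1, Sema3b, Sema3d, Sema3e and Sema4f. Over all 14 genes the pooled SD was 0.46, from 31 probe sets, near that of all genes. The other 23 measured members rested on 1 measured probe set. By the size of the ratio, 19 of the 37 lay beyond 1 SD of 0.51 from 0 (51.4%), against 29.6% of all measured genes, 9 of them higher and 10 lower.

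Signalling partners of these receptors, taken from lists of known pathway genes, had medians slightly above that of all genes. In the semaphorin-plexin list 28 of 33 genes with a probe set were measured, with a median log2 ratio of 0.23. In it 1 gene was at least 2-fold higher and 1 at least 2-fold lower. That is 3.57% each, near the 3.51% and 4.22% of all measured genes. Fes, a tyrosine kinase linked to plexin A signalling, was 3.61-fold lower (1266 and 351), and Chl1, an adhesion molecule that partners Nrp1, was 2.04-fold higher (2237 and 4572). The collapsin response mediators, cytosolic proteins downstream of Sema3a that are abundant in neurons, all 5 had log2 ratios above 0: Crmp1 0.997, Dpysl2 0.95, Dpysl5 0.79, Dpysl3 0.59 and Dpysl4 0.23. The 22 measured Slit-Robo partners had a median of 0.15, with the kinase Pak3 2.06-fold higher and the cyclase-associated protein Cap1 2.24-fold lower. These were the only partners past 2-fold in that list, 4.55% in each direction, again near the share of all genes. The 13 measured netrin partners had a median of 0.21, with the ubiquitin ligase Siah1a 2.48-fold higher and none at least 2-fold lower. Siah1a alone made up 7.69% of that list, against 3.51% of all genes at least 2-fold higher.

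Markers of cell types that express guidance genes also differed between the arrays. For the counts below, 43.7% of all measured genes had a log2 ratio below 0. All 14 neuron markers read higher than in wild type, with a median log2 ratio of 0.81 and a summed signal of 158711 against 81427. Of 8 olfactory neuron markers 7 were higher (21832 against 17266 summed). Among these, Omp, Cnga2 and Neurog1 reached the measured level only on the array labelled double null, so a difference helped them to be counted. Gap43 is in both neuron lists. Of 7 measured Schwann cell markers 5 were higher (48291 against 33456). Of 12 endothelial markers 9 were lower, with a median of -0.44 and a summed signal of 17658 against 22571. One of them, Pecam1, was under the floor on the array labelled double null, and no other measured marker of these lists was under it on either array. Of 10 epithelial markers 8 were lower (119399 against 153943). Of 8 measured palatal mesenchyme markers 5 were lower, with a median of -0.16; Msx1 was 3.71-fold lower, while their sum (86376 against 70860) was higher through Col1a1, with 36646 and 61076. Of 5 measured cartilage markers 3 were lower (10316 against 11574 summed). Of 6 listed bone markers 3 had a probe set annotated to 1 gene. Of these 2 were lower, while the sum was higher (94311 against 91973). The part of these shifts in the values of the guidance genes was not tested.

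**Figure D4:**
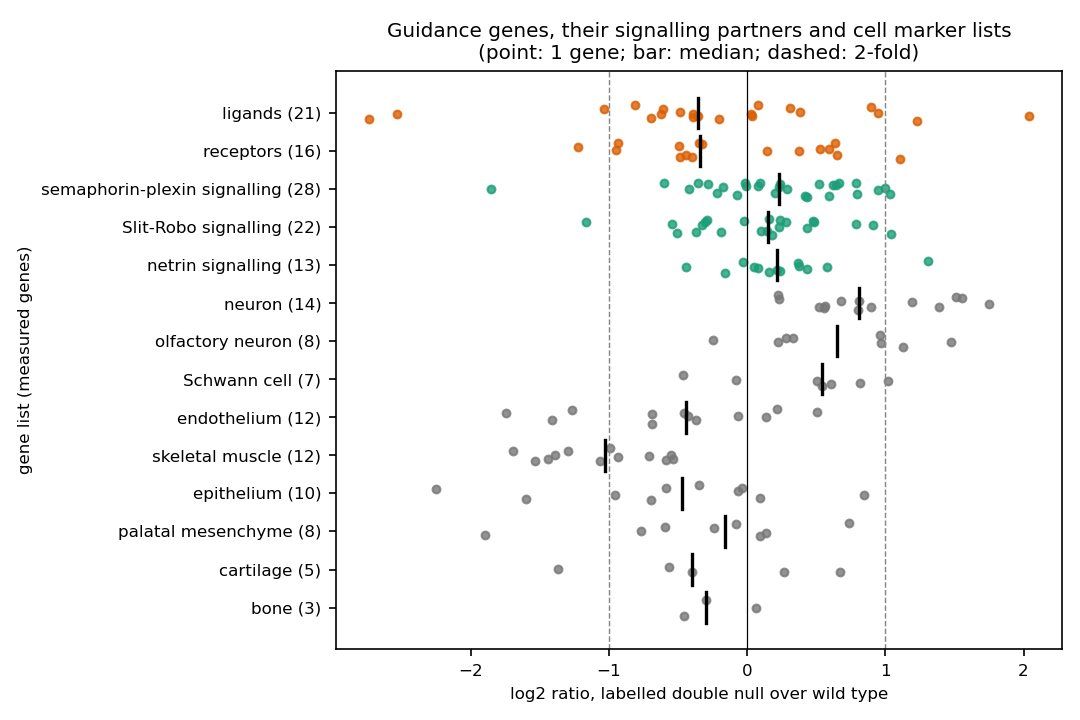
Log2 ratios (array labelled double null over wild type) of the measured guidance ligands and receptors, of 3 lists of their signalling partners and of 9 cell marker lists, with 1 point per gene, a bar at each median and the number of genes in brackets. Guidance ligands spread more widely than their signalling partners, all neuron markers lie to the right of 0 and all skeletal muscle markers to the left.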

How the data were processed

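Total RNA (6 µg per sample, per the labels' protocols) had been hybridised to Affymetrix arrays. The authors deposited 1 linear signal intensity for each probe set, made with MAS5 according to the submitters' processing notes; version and genome build are not given in the sources used here. Gene names came from the platform annotation (34945 with 1 gene, 932 with several, 9160 with none), 64 control probe sets were left out, and all 103 member identifiers matched the RefSeq table with no symbol changed.

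The arrays were brought to a common median over the probe sets in the upper 50% of both (factors 0.974 and 1.03). Signals were floored at the 40th percentile, and log2 was taken. Every member is a named gene: those past 2-fold and the highest and lowest of each family have both signals. Of the signalling and ephrin lists the genes with the largest ratios are named; marker lists are given by counts, medians and sums. The collapsin response mediators, Pecam1, Col1a1, Msx1, Omp, Cnga2, Neurog1, Gap43, Robo4 and some ephrin genes were named after their values were seen. The members and lists were chosen with earlier results of these data known. Alternatives to the scaling, floor, filter, probe set and fold were run. Motif matches were counted in RefSeq promoter windows. The steps were tested on simulated data. Python 3.11.15, numpy 2.4.6, pandas 2.3.3 and matplotlib 3.10.9 were used.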

Additional observations from a re-analysis of the deposited data

How the results depend on the processing

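The 12 alternatives were quantile normalization, the deposited scaling, scaling on the median signal or median ratio of reference genes, floors at the 20th and 60th percentile, no floor, an offset in place of the floor, the mean over measured probe sets, probe sets without suffixes, a filter at the 75th percentile and no filter; folds of 1.5 and 3 were also tried. Scaling on the median signal of reference genes shifted all genes by 0.13 and gave a guidance median of -0.22. It gave 5 guidance genes at least 2-fold higher (Ntn1 and Sema3e joined), where 5.37% of all genes were, and 3 lower, where 3.06% were. Scaling on their median ratio shifted all genes by -0.15 and gave a median of -0.50. That scaling and the deposited one each gave 2 higher and 6 lower, as Plxna2 and Plxna4 joined and Unc5d was lost. Of all genes 2.10% and 2.74% were then higher, and 6.14% and 5.10% lower. The guidance median lay 0.42 below that of all genes in the reported values and 0.39 to 0.42 below it under the 4 scalings. Apart from quantile normalization these scalings shift guidance genes and all genes nearly alike, so this distance could hardly change under them. The share of genes past 2-fold that were higher was 45.4%, against 35.0%, 63.7% and 25.5% with the deposited, reference signal and reference ratio scalings. The median was -0.013 with the mean over measured probe sets and -0.10 with no filter. An offset left 2 genes lower and 4 past 2-fold in all, against 2.36% and 4.11% of all genes. Probe sets without suffixes left 2 lower, against 4.15% of all genes. At 1.5-fold 8 were higher and 10 lower (18 in all), at 3-fold 1 and 2 (3 in all). Of 428 single gene values 423 stayed within the SD between probe sets; the 5 others were Ntn1 (0.27) and Unc5d (0.01) with the higher floor, Sema6a (-0.00) and Slit2 (0.14) with the mean, and Sema4f (1.44) without suffixes. Across 12 alternatives 32 of 37 genes kept their sign, and Nrp2, Ntn4, Sema3c, Sema6d and Slit2 did not. These counts of values within the SD and of signs kept were largely fixed in advance. The lower floor, no floor and both changes of the filter left the ratio of each measured guidance gene as it was. The deposited and reference gene scalings shifted all guidance ratios by one constant, smaller than the SD. No paired analysis was possible because each group held 1 array.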

Other observations

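Ephrins and Eph receptors, another family of contact-dependent guidance cues, were measured for 14 of 21 genes with a probe set. Their median log2 ratio was -0.23, against 0.07 for all genes. Below 0 were 9 of the 14 (64.3%), against 43.7% of all measured genes. Efna5, a membrane-anchored ephrin that repels axons, was the 1 gene past 2-fold (6591 and 2948, 2.24-fold lower). It made up 7.14% of the 14, against 7.72% of all measured genes past 2-fold. The ligand Efna1 and its receptor Epha2 had log2 ratios of -0.61 and -0.71, and Epha5, a receptor of Efna5, had the highest ratio at 0.52. Robo4, an endothelial relative of the Robo receptors outside the member rule, gave 1071 and 444, or 2.41-fold lower.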
